A study of Mus musculus with 16 samples.

Results

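The 70 genes described here encode the heat shock proteins of the mouse (Hsp70, Hsp110, Hsp90, the mitochondrial chaperonin and the small heat shock proteins) and the DnaJ cochaperones of the A, B and C classes. They were taken by symbol alone, as every gene of the deposited table whose name follows the pattern of these families, 70 of 54347 genes. RNA was sequenced from 4 groups of 4 libraries each, 4 mice for each genotype and cell type. Bone marrow of URE and WT mice was sorted into LSKs, which hold stem cells and multipotent progenitors (Lin-Sca-1+c-Kit+), and GMPs, progenitors committed to granulocytes and monocytes (Lin-Sca-1-c-Kit+Cd16/32+). URE mice lack the upstream regulatory element, an enhancer of *Spi1*, the gene of the transcription factor PU.1, and were studied before leukemia had developed. All mice were littermates on the C57BL/6 background, 8 to 12 weeks old, and no other treatment or allele is named for any group. A sorted gate holds a mixture of cells, so the values are averages over it, and fewer cells of a type cannot be told apart from less RNA per cell.

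Heat shock proteins bind unfolded or partly folded proteins and help them to fold, to cross membranes or to be handed over for degradation. Hsp70 proteins do this in cycles of ATP hydrolysis, which J proteins start by bringing the substrate and stimulating the ATPase, and which nucleotide exchange factors such as the Hsp110 proteins end. Each compartment has its own set: *Hspa8* and the Hsp90 pair in the cytosol, *Hspa5* (BiP) and *Hsp90b1* (Grp94) in the endoplasmic reticulum (ER), and *Hspa9* with the *Hspd1* and *Hspe1* chaperonin in mitochondria. In blood cell progenitors the ER set is best known from cells that make secretory or granule proteins, and the cytosolic inducible genes from the heat shock response driven by *Hsf1*.

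Of the 70 members, 62 had enough counts to be tested, among 15935 genes tested in all. Values below are CPM, counts scaled to the size of the library with the TMM factors of edgeR, in the order of replicates 1 to 4, and fold changes are log2 values with their standard error (SE) from 1 fit of all 16 libraries that carried the replicate number as a block. To be called, a gene needed a fold change over 1.5 with its adjusted p below 0.05. Library totals lay between 20028302 and 29128858 counts, and the members took 1.27 ± 0.326% of the counts in WT LSKs, 1.45 ± 0.437% in URE LSKs, 1.70 ± 0.399% in WT GMPs and 1.59 ± 0.388% in URE GMPs (SD, n = 4 each). All 8 GMP markers were called higher in GMPs in each genotype, and 7 of 8 LSK markers lower in GMPs of WT and 8 of 8 in GMPs of URE mice. Transcripts of the Y chromosome were present in 3 of 4 WT and 1 of 4 URE libraries of each cell type, so sex was unevenly spread over the genotypes. They were in replicates 1, 2 and 3 of WT and in replicate 1 of URE. Sex thus matched between the genotypes in replicates 1 and 4, and went with the genotype in replicates 2 and 3. Markers of other lineages (15 genes) summed to 92.5 to 183 CPM in WT LSKs, 162 to 418 CPM in URE LSKs, 336 to 543 CPM in WT GMPs and 263 to 582 CPM in URE GMPs, while the T cell genes Cd3e and Cd8a among them were at 0 in URE libraries and at 2 counts or fewer in WT libraries.

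The deleted element was checked first. *Spi1* stood at 127, 69.5, 134 and 166 CPM in WT LSKs and at 2.85, 4.44, 3.67 and 1.13 CPM in URE LSKs (log2 fold change −5.36 ± 0.42 (SE), adjusted p = 2.56e-06). In GMPs the levels were 139, 84.8, 181 and 153 CPM in WT and 17.4, 28.6, 23.6 and 15.6 CPM in URE (log2 fold change −2.70 ± 0.36 (SE), adjusted p = 0.000151). No URE library reached the lowest WT library of its cell type, so the genotype labels held in all 16 libraries. *Spi1* did not check the cell type labels of WT, where GMPs and LSKs overlapped.

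The members covered a wide span of levels. Compared per kilobase of exon, the most abundant in WT LSKs were *Hspa8*, the constitutive cytosolic Hsp70, at 798 CPM per kb, *Hsp90ab1*, the constitutive cytosolic Hsp90, at 494, *Hspd1*, the mitochondrial Hsp60, at 193 and *Hspa5* at 192. In WT GMPs the order was *Hspa8* at 1144 CPM per kb, *Hsp90ab1* at 779, *Hspa5* at 765 and *Hspd1* at 379. *Hspa8* alone made up 18.8 to 42.4% of the members' counts in a library. At the other end, *Hspb1*, *Hspb2*, *Hspb3*, *Hspb7*, *Hspb9*, *Hspa1l*, *Dnajb8* and *Dnajc22* did not pass the filter, with at most 23 counts in any library. Thus 5 of the 8 small heat shock proteins, *Hspb1* (Hsp27) with at most 6 counts among them, were at or near 0 in both cell types.

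**Figure D1:**
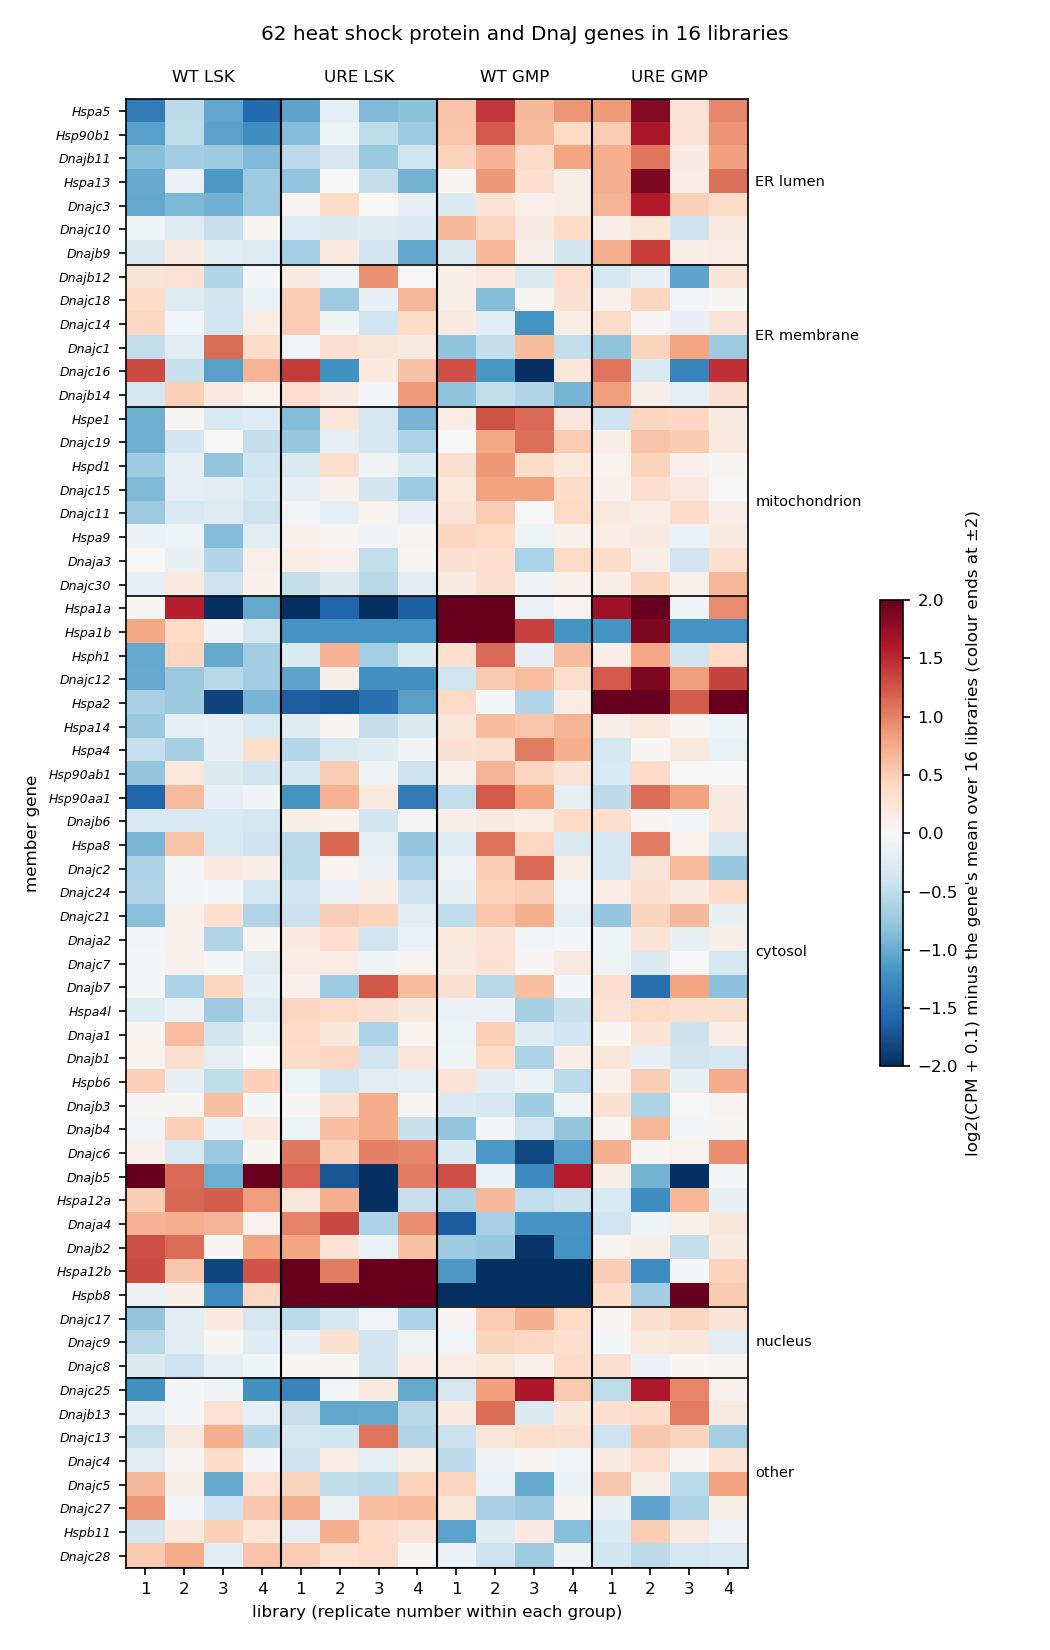
Levels of the 62 members that passed the filter (rows, grouped by the compartment of the protein) in the 16 libraries (columns, replicates 1 to 4 of each group). Colour is log2(CPM + 0.1) minus the gene's mean, red above and blue below, cut at ±2. Most rows of the ER lumen block turn from blue in LSKs to red in GMPs, but not *Dnajb9* in WT or *Dnajc3* in URE. *Hspb8* and *Hspa12b* are highest in URE LSKs.

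The first question was how the chaperones differ between the stem cell compartment and the committed progenitors, and most chaperones of the ER lumen were higher in GMPs. Among the 62 members, 21 were called higher and 9 lower in GMPs than in LSKs of WT mice, where 14.4% and 22.3% of all genes tested were called in these directions. In URE mice 16 members were called higher and 4 lower, against 14.2% and 19.7% of all genes. The median over the members was 0.33 in WT and 0.17 in URE, beside −0.12 and −0.07 over all genes tested. In both genotypes 13 members were called higher and 3 lower in GMPs, as were 8.25% and 13.7% of all genes. Over these and the genotype comparisons, 36 of the 62 members were called at least once and 26 never, beside 53.6% and 46.4% of all genes. The median over all genes shifted by less than 0.1 between the 2 ways of scaling the libraries.

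Of the 7 proteins of the ER lumen, 6 were called higher in GMPs in each genotype, and the set of 6 differed by 1 gene. *Hspa5*, the ER Hsp70 that also holds the stress sensors of the ER in check, stood at 645, 1187, 833 and 581 CPM in WT LSKs and at 2542, 4566, 2666 and 3161 CPM in WT GMPs. It rose 3.99-fold (log2 fold change 2.0 ± 0.16 (SE), adjusted p = 1.41e-06). In URE mice it went from 823, 1491, 927 and 962 CPM to 3081, 6106, 2092 and 3311 CPM (log2 fold change 1.75 ± 0.16 (SE), adjusted p = 2.53e-06). Every GMP library lay above every LSK library, whichever the genotype.

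*Hsp90b1*, the ER Hsp90, followed the same order. It measured 334, 497, 335 and 299 CPM in WT LSKs and 1034, 1657, 1097 and 935 CPM in WT GMPs (log2 fold change 1.68 ± 0.15 (SE), adjusted p = 1.92e-06). Its URE values were 387, 656, 497 and 427 CPM in LSKs and 1003, 2187, 864 and 1317 CPM in GMPs (log2 fold change 1.40 ± 0.14 (SE), adjusted p = 5.59e-06). Again the cell types did not overlap. Its exons share 415 bases with a gene on the opposite strand, which unstranded libraries cannot separate.

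Of the J proteins of the ER lumen, *Dnajb11* and *Dnajc3* were called higher in GMPs of both genotypes. *Dnajb11* (ERdj3), which brings unfolded proteins to *Hspa5*, was at 105, 116, 116 and 103 CPM in WT LSKs against 258, 307, 245 and 328 CPM in WT GMPs (log2 fold change 1.36 ± 0.13 (SE), adjusted p = 3.73e-06). In URE mice its LSK range of 112 to 151 CPM and its GMP range of 212 to 395 CPM were also apart (log2 fold change 1.20 ± 0.13 (SE), adjusted p = 7.77e-06). *Hspa13*, an Hsp70 of microsomes, rose by 1.10 ± 0.19 in WT and 1.52 ± 0.19 in URE on the log2 scale (SE, adjusted p = 0.000324 and 2.75e-05). For *Dnajc3* (p58IPK), an ER J protein known as an inhibitor of the kinase PERK, the rises were 0.95 ± 0.18 and 0.74 ± 0.17 (adjusted p = 0.000607 and 0.00375).

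The remaining pair differed between the genotypes in its calls. *Dnajc10* (ERdj5), a disulfide reductase of ER-associated degradation, was called in WT (log2 fold change 0.60 ± 0.12 (SE), adjusted p = 0.000973) and not in URE (log2 fold change 0.30 ± 0.12 (SE), adjusted p = 0.0543), and the difference between these effects did not pass the test (adjusted p = 0.322). *Dnajb9* (ERdj4), a target of the ER stress sensor Ire1, was called in URE (log2 fold change 1.09 ± 0.16 (SE), adjusted p = 0.000127) and not in WT (log2 fold change 0.17 ± 0.16 (SE), adjusted p = 0.403). Here the difference itself passed (0.92 ± 0.23, adjusted p = 0.0293), though leaving out any of 11 libraries took its adjusted p above 0.05, to 0.0723 at most. The 5 libraries that could be left out were replicate 2 of WT LSKs, 2 and 3 of URE LSKs, 3 of WT GMPs and 3 of URE GMPs.

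**Figure D2:**
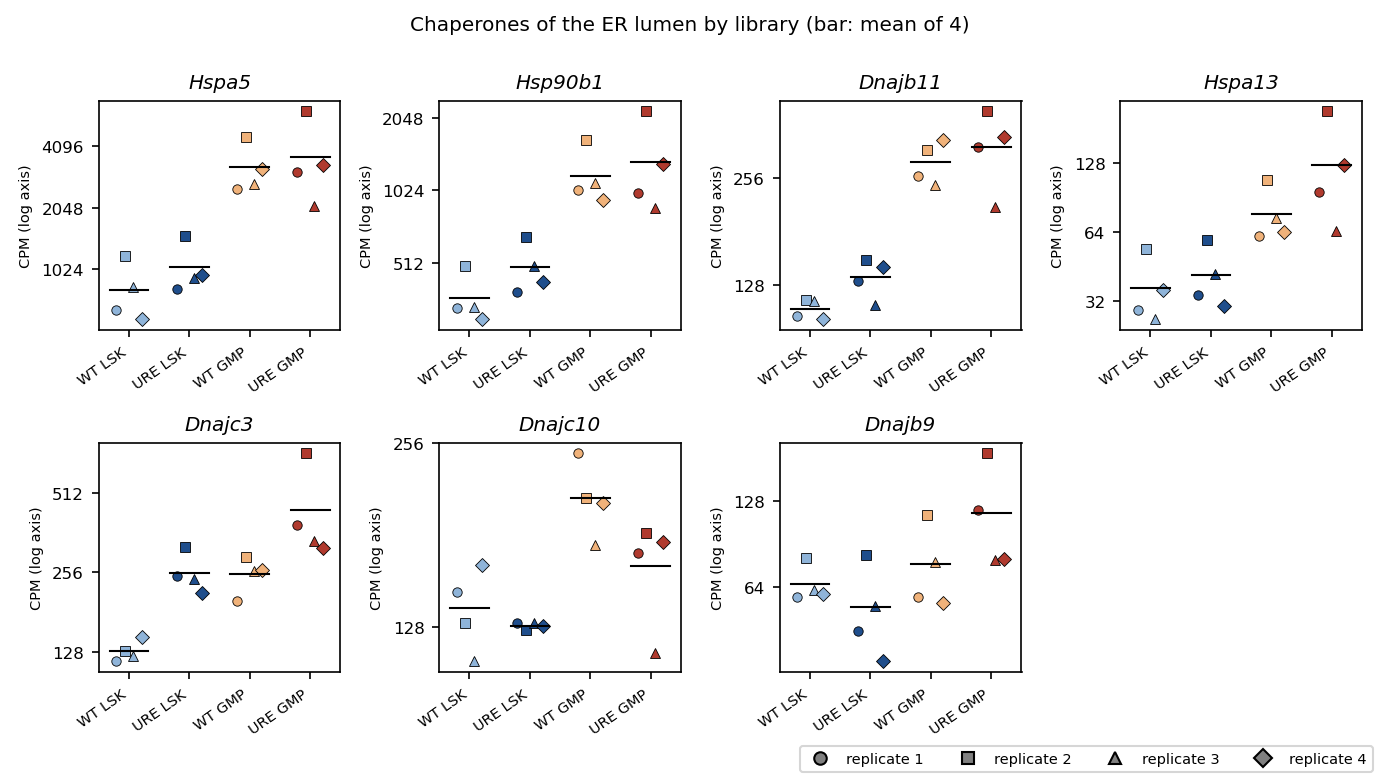
CPM (log axis) of the 7 ER lumen members in each library, with the group mean as a bar and the marker shape giving the replicate number. For *Hspa5*, *Hsp90b1*, *Dnajb11* and *Hspa13* all GMP points of a genotype lie above its LSK points, and replicate 2 is the highest point of most groups.

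Promoters of the ER lumen genes are shown, as far as they hold the letters of the ER stress element, CCAAT and CCACG with 9 bases between them. Windows from 250 bases before to 50 after the RefSeq start (GRCm38.p6) were searched on both strands, and 57 of the 70 members had 74 windows. The element's letters were in the windows of 3 members, *Hspa5*, *Hsp90b1* and *Dnajc3*, that is in 4.05% of the member windows and 0.119% of the 32817 windows of all genes. The 220 bases before the start are given 5′ to 3′ in the direction of the gene, at chr2:34771870-34772089 on the plus strand, chr10:86705445-86705664 on the minus strand and chr14:118937712-118937931 on the plus strand, with the element in capitals. In *Hsp90b1* it occurs 2 times, once in each orientation.
Hspa5: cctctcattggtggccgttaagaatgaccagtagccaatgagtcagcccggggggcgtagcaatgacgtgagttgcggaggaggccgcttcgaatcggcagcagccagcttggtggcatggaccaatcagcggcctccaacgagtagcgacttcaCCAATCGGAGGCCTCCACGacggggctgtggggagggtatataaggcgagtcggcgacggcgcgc
Hsp90b1: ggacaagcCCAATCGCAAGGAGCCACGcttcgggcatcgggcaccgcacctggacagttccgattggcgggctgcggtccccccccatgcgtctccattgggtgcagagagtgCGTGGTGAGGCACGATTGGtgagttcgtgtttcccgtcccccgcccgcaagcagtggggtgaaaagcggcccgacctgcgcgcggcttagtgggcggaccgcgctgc
Dnajc3: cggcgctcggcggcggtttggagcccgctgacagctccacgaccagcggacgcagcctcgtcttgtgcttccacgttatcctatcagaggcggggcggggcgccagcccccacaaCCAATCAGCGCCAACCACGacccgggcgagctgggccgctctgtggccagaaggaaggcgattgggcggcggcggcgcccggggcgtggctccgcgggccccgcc
The element begins 65 bases before the start in *Hspa5*, 212 before it in *Hsp90b1* and 105 before it in *Dnajc3*. *Dnajb11*, *Dnajb9* and *Dnajc10* have windows without these letters, which says only that this spelling is not in the window. *Hspa13* had no window and was not searched.

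Other genes of the ER folding machinery were counted from a list of 22. Of these, 14 were called higher and 1 lower in GMPs of WT mice, and 17 higher and 0 lower in URE mice, with a median of 1.05 and 1.29. Over all genes the shares were 14.4% and 22.3% in WT, and 14.2% and 19.7% in URE. *Sdf2l1*, which works with *Dnajb11* on *Hspa5*, rose by 2.94 ± 0.15 (SE) in WT and 3.03 ± 0.15 (SE) in URE. *Calr* (calreticulin) rose by 1.90 ± 0.23 (SE) and 2.81 ± 0.23 (SE), and *Manf* by 2.0 ± 0.15 (SE) and 2.15 ± 0.15 (SE). *Hyou1*, the Hsp110 protein of the ER, is not in this list but among the 14 cofactors of Hsp70 counted below. It rose by 2.01 ± 0.36 (SE) and 2.36 ± 0.36 (SE). By contrast *Ddit3* (CHOP), a transcription factor of the ER stress response, fell in WT (−0.69 ± 0.19 (SE), adjusted p = 0.00915). It was chosen after its value was seen, as the 1 gene of the list of 22 called lower.

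Of the 8 mitochondrial members tested, 5 were called higher in GMPs of WT and 3 in GMPs of URE mice, and 0 were called lower in either. Among all genes, 14.4% were called higher and 22.3% lower in WT, and 14.2% and 19.7% in URE. *Hspd1* and *Hspe1*, the ring and the lid of the chaperonin that folds imported proteins, are transcribed in opposite directions from 1 shared promoter. *Hspd1* measured 437, 638, 421 and 548 CPM in WT LSKs and 904, 1328, 934 and 841 CPM in WT GMPs (log2 fold change 0.96 ± 0.11 (SE), adjusted p = 1.04e-05). In URE mice it was at 599.8, 912, 690.3 and 587 CPM in LSKs and 762, 991, 779 and 738 CPM in GMPs, groups that overlap (log2 fold change 0.24 ± 0.10 (SE), adjusted p = 0.0766).

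*Hspe1* was called in both genotypes. It went from 62.8, 127, 99.4 and 103 to 136, 297, 269 and 144 CPM in WT (log2 fold change 1.07 ± 0.16 (SE), adjusted p = 1e-04) and from 67.2, 145, 97.4 and 64.7 to 92.9, 167, 164 and 139 CPM in URE (log2 fold change 0.63 ± 0.15 (SE), adjusted p = 0.00499). The URE groups overlap, although GMPs were the higher in each of the 4 replicates. *Dnajc19*, a J protein of the import motor at the inner membrane, rose by 1.06 ± 0.12 and 0.83 ± 0.12 (adjusted p = 1.7e-05 and 0.000118). *Hspa9* (mortalin), the motor's Hsp70, was below the fold limit in WT (log2 fold change 0.52 ± 0.11 (SE), adjusted p = 0.00192) and did not pass in URE (log2 fold change 0.08 ± 0.11 (SE), adjusted p = 0.598).

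The shared promoter holds the letters of the heat shock element, GAANNTTC or TTCNNGAA, 3 times (both read the same on the other strand). They are given in capitals in the 220 bases before the start of *Hspd1*, at chr1:55087933-55088152 on the minus strand of GRCm38.p6, where they overlap each other.
Hspd1: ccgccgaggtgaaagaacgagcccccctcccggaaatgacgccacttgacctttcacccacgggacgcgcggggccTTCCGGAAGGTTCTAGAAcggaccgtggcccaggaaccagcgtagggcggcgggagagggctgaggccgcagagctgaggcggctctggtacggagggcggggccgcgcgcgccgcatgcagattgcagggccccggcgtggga
They begin 144 bases before the start. At least 2 copies were in 8 of the 74 member windows (10.8%), those of *Dnaja4*, *Dnajb6*, *Hspb1*, *Hspd1*, *Hspe1* and *Hsph1*, against 1.95% of all windows. Some of these 8 overlap, *Hspd1* with *Hspe1* and the pairs of *Dnajb6* and *Hsph1* windows, so that 5 separate regions stand behind them. A single copy or more was in 23% of the member windows and 15.1% of all windows.

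In the cytosol, 8 of 30 tested members were called higher and 6 lower in GMPs of WT mice, and 4 higher and 2 lower in URE mice. The shares of all genes were 14.4% and 22.3% in WT, and 14.2% and 19.7% in URE. *Hsp90aa1*, the inducible Hsp90, was called in both genotypes (0.59 ± 0.22 in WT, adjusted p = 0.0362, and 0.78 ± 0.22 in URE, adjusted p = 0.00985), with overlapping groups. *Hspa8* stayed under the fold limit in WT (log2 fold change 0.50 ± 0.14 (SE), adjusted p = 0.00915) and did not pass in URE (log2 fold change 0.18 ± 0.14 (SE), adjusted p = 0.304). The J proteins *Dnaja1*, *Dnaja2* and *Dnajb1*, its main partners in the cytosol, were not called, with log2 values between −0.30 and 0.23 in the 2 genotypes. *Dnajb6*, known to suppress aggregation, was higher in all 4 WT GMP libraries but under the fold limit (log2 fold change 0.52 ± 0.11 (SE), adjusted p = 0.00131).

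In WT mice 3 further genes of the Hsp90 and Hsp110 families and the Hsp70 gene *Hspa14* were called higher in GMPs. *Hsp90ab1* measured 1043, 2055, 1458 and 1374 CPM in LSKs and 1909.7, 2849, 2400.1 and 2188 CPM in GMPs (log2 fold change 0.68 ± 0.11 (SE), adjusted p = 0.000158). Its URE difference was 0.10 ± 0.11 and did not pass (adjusted p = 0.47). *Hsph1* went from 57.2, 157, 57.4 and 72.1 to 147, 257, 104 and 182 CPM in WT (log2 fold change 1.06 ± 0.13 (SE), adjusted p = 2.8e-05), and was under the fold limit in URE (log2 fold change 0.37 ± 0.13 (SE), adjusted p = 0.0337). *Hspa4*, which resets Hsp70 by nucleotide exchange, rose in WT as well (log2 fold change 0.81 ± 0.16 (SE), adjusted p = 0.00115) and did not pass in URE (log2 fold change 0.24 ± 0.16 (SE), adjusted p = 0.254), and *Hspa4l* did not pass in WT or URE (adjusted p = 0.995 and 0.991). *Hspa14*, the Hsp70 bound to ribosomes, rose in WT (log2 fold change 0.86 ± 0.13 (SE), adjusted p = 0.000113) and did not pass in URE (log2 fold change 0.31 ± 0.13 (SE), adjusted p = 0.0618). In each of these 4 calls GMPs were higher in all 4 replicates.

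*Hspa2* and *Dnajc12* were called higher in GMPs of both genotypes. From LSKs to GMPs *Hspa2* went up 2.04-fold in WT (log2 fold change 1.03 ± 0.25 (SE), adjusted p = 0.00474) and 16.6-fold in URE (log2 fold change 4.05 ± 0.28 (SE), adjusted p = 2.41e-07). *Dnajc12*, a J protein for aromatic amino acid hydroxylases, went from 7.37, 8.93, 10.1 and 9.15 to 11.3, 21.5, 23.0 and 19.0 CPM in WT (log2 fold change 1.04 ± 0.25 (SE), adjusted p = 0.00381). Its URE levels were 7.14, 16.2, 6.36 and 6.40 and 34.9, 54.7, 26.7 and 38.5 CPM (log2 fold change 2.15 ± 0.26 (SE), adjusted p = 1.91e-05). No LSK library of either gene reached a GMP library of its genotype.

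The ER membrane, the nucleus and other sites hold 17 tested members, of which 5 were called in each genotype. In WT 2 were higher and 3 lower in GMPs, and in URE 3 were higher and 2 lower. Over all genes 14.4% were called higher and 22.3% lower in WT, and 14.2% and 19.7% in URE, so these counts do not stand out. Of 6 J proteins of the ER membrane, 1 was lower in WT GMPs, *Dnajb14* (log2 fold change −0.82 ± 0.25 (SE), adjusted p = 0.0164). Of 3 nuclear J proteins, *Dnajc17*, a splicing cofactor, was higher in GMPs of both genotypes (0.71 ± 0.14 and 0.66 ± 0.14, adjusted p = 0.000892 and 0.00164). *Dnajc8* of the spliceosome and the histone chaperone *Dnajc9* passed in WT under the fold limit (0.46 ± 0.11 and 0.54 ± 0.14, adjusted p = 0.00474 and 0.0059). Among 8 tested members of other sites, *Dnajc25* rose in both genotypes (1.36 ± 0.25 and 1.16 ± 0.25) and *Dnajc28* fell in both (−0.76 ± 0.20 and −0.72 ± 0.20). *Hspb11*, an intraflagellar transport protein, fell in WT (−0.63 ± 0.18), and *Dnajc27*, a Rab-like GTPase with a J domain, in URE (−0.91 ± 0.20). *Dnajb13*, of ciliary radial spokes, rose in URE (1.41 ± 0.43, adjusted p = 0.0163), a call lost without replicate 2 of URE LSKs or replicate 3 of URE GMPs (adjusted p up to 0.0747). It was near the floor, with 8 to 14 counts in URE LSKs and 16 to 33 in URE GMPs. Its exons also share 305 bases with the opposite gene *Ucp2*, which unstranded libraries cannot separate.

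*Hspa1a* and *Hspa1b*, the inducible Hsp70 pair that marks a heat shock response, were at low levels. *Hspa1a* had at most 174 counts in a library, the second replicate of WT GMPs, where it measured 7.23 CPM. It was 0.609, 1.95, 0 and 0.242 CPM in WT LSKs and 5.15, 7.23, 0.538 and 0.623 CPM in WT GMPs (log2 fold change 2.42 ± 0.64 (SE), adjusted p = 0.00716). Values in URE mice were 0, 0.133, 0 and 0.125 CPM in LSKs and 2.17, 3.34, 0.564 and 1.24 CPM in GMPs (log2 fold change 4.94 ± 0.86 (SE), adjusted p = 0.000427). GMPs were thus the higher in each replicate of both genotypes, at levels where a handful of counts sets the value (in URE 4.34 without replicate 1 of LSKs and 5.94 without replicate 4). The 2 genes are near-identical and *Hspa1a* shares 564 bases with an opposite gene, so the split of reads between them is uncertain. *Hspa1b* reached 44 counts at most, and no fold change is given for it.

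The called members with the largest fall from LSKs to GMPs of WT mice were *Hspb8*, *Hspa12b*, *Dnajb2* and *Dnaja4*. *Hspb8*, a small heat shock protein that works with *Bag3* in selective autophagy, had 1.76, 2.08, 0.742 and 2.58 CPM in WT LSKs and 0.0866, 0.166, 0 and 0.0519 CPM in WT GMPs, the latter from 0 to 4 counts a library (log2 fold change −4.43 ± 0.80 (SE), adjusted p = 0.000504). In URE mice it fell from 12.5, 26.2, 19.6 and 20.3 CPM in LSKs to 2.51, 1.15, 8.51 and 2.82 CPM in GMPs (log2 fold change −2.45 ± 0.55 (SE), adjusted p = 0.00265), with no overlap of the cell types in either genotype. The size rests on single libraries, being −3.38 in URE without replicate 3 of URE GMPs and −5.16 in WT without replicate 2 of WT GMPs. *Hspa12b*, a distant Hsp70 relative known from endothelium, fell by 3.13 ± 0.53 in WT and 2.42 ± 0.48 in URE (adjusted p = 0.000324 and 0.00107). *Dnajb2*, a J protein that binds ubiquitin, fell in WT from 19.0, 16.8, 7.93 and 13.4 to 4.68, 4.53, 1.91 and 3.32 CPM (log2 fold change −1.99 ± 0.19 (SE), adjusted p = 3.76e-06). Its URE difference did not pass (log2 fold change −0.42 ± 0.18 (SE), adjusted p = 0.0805). *Dnaja4*, a cytosolic J protein whose exons share 1581 bases with the opposite gene Wdr61, fell in WT (log2 fold change −1.82 ± 0.39 (SE), adjusted p = 0.00192).

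The second question was how these genes differ between URE and WT mice, and in LSKs few members were called. Compared with WT, 5 of the 62 were called higher and 2 lower in URE LSKs, where 5.1% and 6.55% of all genes tested were called, and the median was 0.11 over the members and 0.02 over all genes. The count fell to 3 (3 higher, 0 lower) when the level of Y-linked transcripts was a covariate, and to 4 without the replicate block, while the count over all genes fell from 1857 to 1350 and to 1096. By number the members were near the background. The names of those that rose were *Hspb8*, *Hspa12b*, *Dnajc6*, *Dnajc3* and *Hspa4l*, and those of the members that fell *Hspa1a* and *Dnajb5*. Markers of the sorted cells also differed in LSKs: 0 of 8 LSK markers were called higher and 2 lower in URE, *Cd34* and *Flt3*, and 3 of 8 GMP markers were called higher and 3 lower. Of the 11 tested markers of other lineages 1 was called higher, *Itga2b* of megakaryocytes, and 3 lower. Their part in the members' values was not tested.

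*Hspb8* had the largest called rise, 10.5-fold. It measured 1.76, 2.08, 0.742 and 2.58 CPM in WT LSKs and 12.5, 26.2, 19.6 and 20.3 CPM in URE LSKs (log2 fold change 3.39 ± 0.56 (SE), adjusted p = 0.000909, exact two-sided permutation p = 0.0286, the smallest that 4 against 4 libraries allow). The lowest URE library was 12.5 CPM and the highest WT library 2.58 CPM. The gene lies at chr5:116408491-116422864 on the minus strand, with no other gene on its exons.

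*Hspa12b* was higher in URE in each replicate, with 12.5, 7.28, 1.33 and 12.1 CPM in WT and 31.0, 10.4, 27.3 and 41.9 CPM in URE (log2 fold change 1.78 ± 0.48 (SE), adjusted p = 0.0222). The groups overlap, since replicate 2 of URE lay below 2 WT libraries, and the call was lost without the replicate block (adjusted p = 0.147), with the Y-linked covariate (0.153) and without any of 3 libraries, replicates 1 and 4 of WT LSKs and replicate 4 of URE LSKs (up to 0.0739). *Dnajc6* (auxilin), a J protein that uncoats clathrin vesicles, rose from 44.2, 33.6, 24.6 and 42.6 to 85.7, 57.7, 83.2 and 80.5 CPM without overlap (log2 fold change 1.12 ± 0.21 (SE), adjusted p = 0.00195). Of its 2 promoter windows, 1 was the 1 of the 74 member windows (1.35%) with GAGGAAGT, letters of the PU.1 type searched on both strands, which 3.2% of all windows hold.

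*Dnajc3* rose in LSKs, from 118, 129, 124 and 146 CPM in WT to 247, 319, 242 and 215 CPM in URE (1.94-fold, log2 fold change 0.96 ± 0.18 (SE), adjusted p = 0.00201). Every URE library lay above every WT library. The other ER lumen members were not called, *Hspa5* at 0.38 ± 0.16 (adjusted p = 0.143) and *Hsp90b1* at 0.43 ± 0.14 (adjusted p = 0.0622). *Hspa4l*, a nucleotide exchange factor of the Hsp110 family, had 68.7, 75.2, 49.4 and 67.9 CPM in WT and 109.5, 107, 101 and 95.3 CPM in URE, again apart (log2 fold change 0.67 ± 0.12 (SE), adjusted p = 0.0013). With the Y-linked covariate its fold change fell just under the limit (log2 0.58, adjusted p = 0.0222).

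Both members that fell in LSKs were at low levels. *Dnajb5*, a relative of the Hsp40 protein *Dnajb1*, was 6.38, 2.52, 0.508 and 6.17 CPM in WT and 2.61, 0.265, 0 and 2.34 CPM in URE (log2 fold change −1.98 ± 0.47 (SE), adjusted p = 0.0114), lower in each replicate but with groups that overlap. It was not called without the block (adjusted p = 0.552) or with the Y-linked covariate (0.0706). *Hspa1a* had 19, 58, 0 and 6 counts in WT and 0, 4, 0 and 3 in URE (log2 fold change −3.0 ± 0.88 (SE), adjusted p = 0.0348), a call lost without any of 6 libraries (replicates 1, 2 and 4 of WT LSKs, 1 and 2 of URE LSKs and 2 of WT GMPs, adjusted p up to 0.149, with log2 values from −3.93 without replicate 4 of URE LSKs to −2.41 without replicate 1), without the block (0.176) and with the Y-linked covariate (0.13), and kept when *Hspa1b* was added to it (adjusted p = 0.00693). *Hspa1b* had 9, 6, 3 and 2 counts in WT LSKs and 0 in each URE LSK library, and was not called (adjusted p = 0.063).

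**Figure D3:**
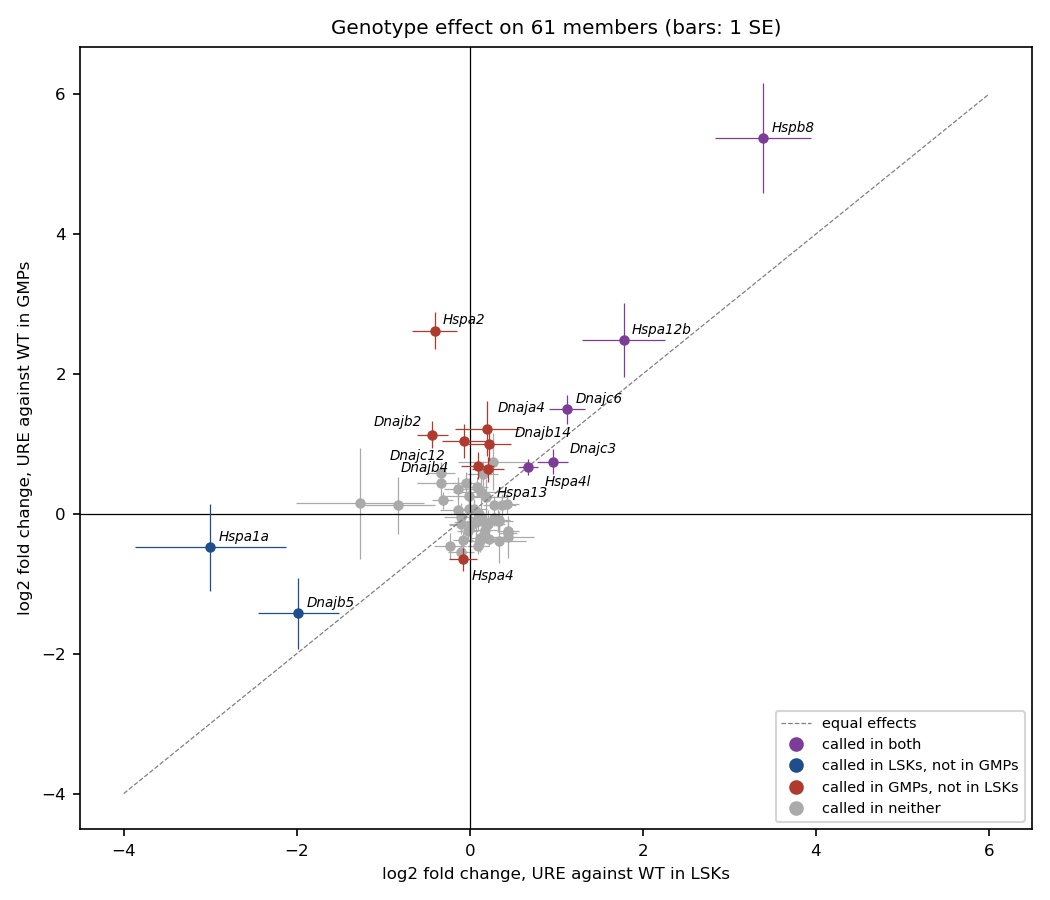
Log2 fold change of URE against WT in LSKs (x axis) and in GMPs (y axis) for 61 members, with bars of 1 SE and colours by call; *Hspa1b*, at 0 in all URE LSK libraries, is left out. Most points sit near 0, *Hspb8* lies far out at 3.39 and 5.38, and *Hspa2* rises on the y axis alone.

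In GMPs more members were called by genotype, and nearly all of those called were higher in URE. Against WT, 12 members were called higher and 1 lower, where 10% and 7.11% of all genes were called, and the medians were 0.03 over the members and 0.02 over all genes. With the Y-linked covariate 8 members were called, and 7 without the replicate block, beside 1996 and 1553 of all genes against 2729. The sorted cells themselves differed: of 8 GMP markers 5 were higher and 1 lower in URE GMPs, and their summed level ranged from 73958 to 160771 CPM, against 55875 to 71378 CPM in WT GMPs. Of 8 LSK markers 4 were called lower and 0 higher in URE GMPs, where they summed to 1039 to 1562 CPM against 1429 to 2767 CPM in WT GMPs. Of the 11 tested markers of other lineages, 2 were called higher (*S100a8* and *S100a9*) and 2 lower. The part of such differences in the members' values was not tested.

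*Hspb8* rose again. It had 2, 4, 0 and 1 counts in the WT GMP libraries and 52, 22, 166 and 50 in URE, or 2.51, 1.15, 8.51 and 2.82 CPM (log2 fold change 5.38 ± 0.79 (SE), adjusted p = 0.00031). With 7 counts in all of WT, its fold change is poorly bounded (4.55 without replicate 3 of URE GMPs and 6.07 without replicate 2 of WT GMPs), but the groups did not overlap. *Hspa12b* went from 2.21, 0.457, 0.440 and 0.830 to 7.04, 2.04, 4.87 and 6.93 CPM (log2 fold change 2.49 ± 0.53 (SE), adjusted p = 0.00438), higher in each replicate although the groups overlap.

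*Hspa2*, an Hsp70 best known from spermatogenesis, rose in GMPs and not in LSKs. It was at 31.9, 23.4, 16.1 and 26.9 CPM in WT GMPs and 173, 197, 56.2 and 213 CPM in URE GMPs, 6.15-fold higher (log2 fold change 2.62 ± 0.26 (SE), adjusted p = 1.52e-05). The third replicate was the lowest in both groups, and the groups were apart. In LSKs the same gene was at 15.3, 14.4, 6.60 and 12.6 CPM in WT and 7.60, 7.36, 8.51 and 11.4 CPM in URE and was not called (log2 fold change −0.40 ± 0.26 (SE), adjusted p = 0.355). The difference between the cell types passed its own test (3.02 ± 0.37, adjusted p = 0.000537). Its exons, at chr12:76404176-76406938 on the plus strand, overlap no other gene, and all alternatives for GMPs kept the call.

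*Dnajc6*, *Dnajc3* and *Hspa4l* rose in GMPs as they did in LSKs. For *Dnajc6* the levels were 34.1, 18.6, 11.7 and 19.5 CPM in WT and 68.0, 42.1, 43.4 and 78.7 CPM in URE (log2 fold change 1.49 ± 0.21 (SE), adjusted p = 0.000205). *Dnajc3* measured 199, 292, 259.9 and 262 and 387, 722, 335 and 316 CPM (log2 fold change 0.75 ± 0.18 (SE), adjusted p = 0.00797). The highest of these, the second URE library, bore on the size, since without it the log2 value was 0.52 and under the limit, and the Y-linked covariate also ended the call (adjusted p = 0.0844). *Hspa4l* had 75.4, 75.2, 51.2 and 59.6 CPM in WT and 99.8, 108, 102 and 102 CPM in URE (log2 fold change 0.67 ± 0.12 (SE), adjusted p = 0.00108), and with the Y-linked covariate it was under the fold limit (log2 0.58, adjusted p = 0.0154). With *Hspb8* and *Hspa12b* these are the 5 members called higher in both cell types, and 0 were called lower in both or in opposite directions. Over all genes these shares were 2.88%, 3.04% and 0.339%.

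The other members called higher in URE GMPs were *Hspa13* and J proteins, which are also most of the tested members. *Dnajb2* went from 4.68, 4.53, 1.91 and 3.32 to 8.05, 8.36, 5.48 and 8.67 CPM (log2 fold change 1.13 ± 0.19 (SE), adjusted p = 0.00082), and *Dnajc12* from 11.3, 21.5, 23.0 and 19.0 to 34.9, 54.7, 26.7 and 38.5 CPM (log2 fold change 1.04 ± 0.25 (SE), adjusted p = 0.00878). Neither overlapped between the genotypes, and both just missed the threshold without the block (adjusted p = 0.0506 and 0.0519). *Dnajb14*, an ER membrane J protein of quality control, rose by 1.01 ± 0.26 (adjusted p = 0.0127), *Dnajb4* by 0.69 ± 0.19 (0.0194), *Dnaja4* by 1.22 ± 0.40 (0.0422) and *Hspa13* by 0.63 ± 0.19 (0.0263). Of these, *Dnaja4* lost its call without any of 11 libraries (adjusted p up to 0.128; the others were replicates 3 and 4 of WT LSKs, 1 and 3 of URE LSKs and 2 of URE GMPs), *Dnajb14* without any of 3 (up to 0.0629), namely replicates 1 and 4 of WT GMPs and 1 of URE GMPs, and *Dnajb4* without any of those 3 or replicate 4 of URE GMPs (up to 0.057). *Hspa13* lost its call without replicates 1, 2 or 4 of WT GMPs or 1, 2 or 4 of URE GMPs (adjusted p up to 0.0947), nor was it called in the 12 libraries of replicates 1, 3 and 4 (0.22). Without the block *Dnaja4* (adjusted p = 0.081), *Dnajb4* (0.159) and *Hspa13* (0.251) were not called, nor were they with the Y-linked covariate (0.0509, 0.141 and 0.0984), and *Dnaja4* was not called without the filter on low counts (0.0624).

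*Hspa4*, an Hsp110 exchange factor of the cytosol, was the 1 member called lower in URE GMPs. It stood at 54.5, 54.8, 90.2 and 72.0 CPM in WT and at 34.6, 45.0, 50.2 and 40.3 CPM in URE (log2 fold change −0.65 ± 0.16 (SE), adjusted p = 0.0116). All URE libraries lay below all WT libraries. Its relative *Hspa4l* moved the other way, as given above, and *Hsph1*, the third of the family, was not called (log2 fold change −0.25 ± 0.13 (SE), adjusted p = 0.195). Without replicate 3 of WT or replicate 4 of URE, the call for *Hspa4* was lost on the fold limit, and without the block on the adjusted p (0.0868).

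Below the fold limit, 7 more members passed on the adjusted p alone, 2 higher and 5 lower in URE GMPs, where the count over all genes went from 2729 to 3479. *Dnajb9* (0.58 ± 0.16, adjusted p = 0.0198) and *Hspb11* (0.57 ± 0.18, 0.0382) were the higher ones. The lower ones were *Hspe1* (−0.54 ± 0.15, 0.0229), *Hspa14* (−0.45 ± 0.13, 0.0217), *Dnajc10* (−0.38 ± 0.12, 0.035), *Hsp90ab1* (−0.36 ± 0.11, 0.0263) and *Dnajc7* (−0.35 ± 0.10, 0.0266), a cochaperone shared by Hsp70 and Hsp90. In each of the 5, URE was the lower library in all 4 replicates. In LSKs, where all genes went from 1857 to 2258, 2 members passed in this way, both higher in URE, *Hspd1* (0.44 ± 0.10, 0.0112) and *Hsph1* (0.44 ± 0.13, 0.0357).

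**Figure D4:**
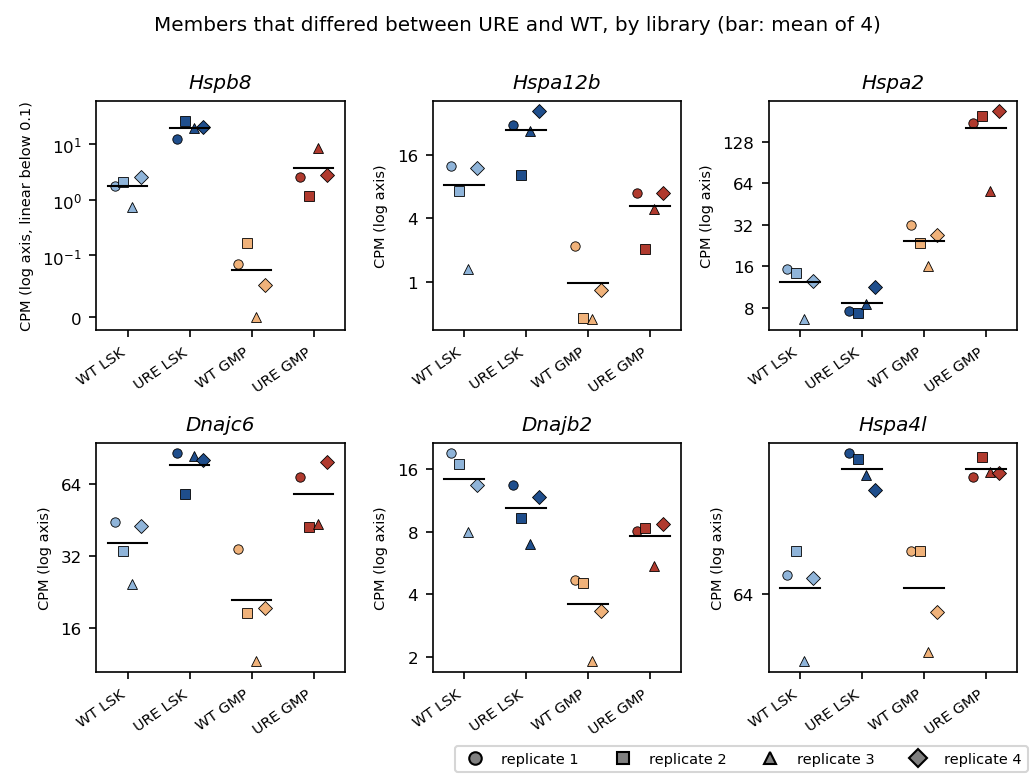
CPM of *Hspb8*, *Hspa12b*, *Hspa2*, *Dnajc6*, *Dnajb2* and *Hspa4l* in each library (log axes, for *Hspb8* linear below 0.1), with group means as bars and marker shapes for the replicate number. In each panel the URE GMP points lie above most WT GMP points, and *Hspa2* and *Dnajb2* show no such rise in LSKs.

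The genotype effect differed between LSKs and GMPs for 6 members, 3 with the higher and 3 with the lower value in GMPs, where 3.97% and 2.6% of all genes were called. Beside *Hspa2* and *Dnajb9*, *Dnajb2* was higher in URE in GMPs and, without a call, lower in LSKs (−0.43), a difference of 1.57 ± 0.26 (adjusted p = 0.00362). *Hspd1*, *Hsp90ab1* and *Hsph1* showed the opposite order. *Hspd1* was 0.44 ± 0.10 in LSKs and −0.28 ± 0.10 in GMPs, a difference of −0.72 ± 0.15 (adjusted p = 0.0118). For *Hsp90ab1* the values were 0.22 ± 0.11 and −0.36 ± 0.11 (difference −0.58 ± 0.15, adjusted p = 0.0338).

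*Hsph1*, the inducible Hsp110, gave 0.44 ± 0.13 in LSKs and −0.25 ± 0.13 in GMPs (difference −0.69 ± 0.18, adjusted p = 0.0394). None of these 3 genes reached the fold limit of a genotype call in either cell type. The interaction rests on the pairing: without the block *Hspa2* was the 1 member that passed, and 9 of the 16 fits that left out a library lost *Hsp90ab1* (adjusted p up to 0.0986) and 9 lost *Hsph1* (up to 0.11). *Hsp90ab1* passed without replicates 3 or 4 of URE LSKs, 2 or 3 of WT GMPs and 1, 3 or 4 of URE GMPs. *Hsph1* passed without replicates 2 or 3 of WT LSKs, 3 or 4 of URE LSKs, 3 of WT GMPs and 1 or 4 of URE GMPs. *Hspa2*, *Dnajb2* and *Hspd1* passed in all 16.

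*Hspa8* and its main J proteins were not called by genotype. *Hspa8* had 2040.5, 5708, 3099 and 2886 CPM in WT LSKs and 2662, 8535, 3383 and 2259.6 CPM in URE LSKs (log2 fold change 0.19 ± 0.14 (SE), adjusted p = 0.436). In GMPs it had 3214, 8203, 5115 and 3157 and 3059, 7880.5, 4049 and 3059 CPM (log2 fold change −0.13 ± 0.14 (SE), adjusted p = 0.551). The replicates of a group differed by far more than the genotypes did.

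Among the other abundant members and J proteins, *Hsp90aa1* gave −0.13 ± 0.22 in LSKs and 0.05 ± 0.21 in GMPs, *Dnaja1* −0.01 ± 0.15 and 0.06 ± 0.15, *Dnajb1* (Hsp40) 0.10 ± 0.14 and −0.10 ± 0.14, *Dnaja2* 0.13 ± 0.12 and −0.06 ± 0.12, and *Dnajb6* 0.28 ± 0.11 and −0.07 ± 0.11 (log2 URE against WT ± SE, none called in either cell type). The mitochondrial J protein *Dnaja3* (Tid1) was at 0.10 ± 0.10 in LSKs and close to 0 in GMPs (SE 0.10), and *Hspa9* at 0.33 ± 0.11 and −0.10 ± 0.11. A p that misses the threshold does not show equal levels. In total 47 of the 62 tested members were called by genotype in neither cell type, beside 77.5% of all genes.

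Partners of the members were counted from lists of their pathways. *Hsf1*, the regulator of the heat shock response, was not called in any comparison (0.31 ± 0.15 (SE) in LSKs and −0.06 ± 0.15 (SE) in GMPs by genotype). *Hsf2* fell in URE GMPs (−0.89 ± 0.19 (SE), adjusted p = 0.00408). *Hsf4* was at very low levels. In LSKs it had 1 to 13 counts in WT and 13 to 40 in URE, and in GMPs 0 to 1 and 1 to 6. It passed the filter on low counts through URE LSKs, the group where it was highest, so no genotype call or fold change is given for it. Of 14 cofactors of Hsp70, 5 were higher in GMPs of WT and 3 in GMPs of URE mice. Among 21 cochaperones of Hsp90, 7 were higher in GMPs of WT and 2 in GMPs of URE mice. Over all genes tested, 14.4% were called higher in GMPs of WT and 14.2% in GMPs of URE mice. *Ptges3* (p23), which closes the Hsp90 clamp, fell in URE GMPs (−0.71 ± 0.17 (SE), adjusted p = 0.00813) and *Unc45a* rose (0.81 ± 0.21 (SE), adjusted p = 0.0124).

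The cytosolic chaperonin TRiC and prefoldin, which fold actin and tubulin, had 8 of 14 genes higher in WT GMPs than in WT LSKs and 2 of 14 in URE. *Tcp1*, a TRiC subunit, was higher by 1.10 ± 0.11 (SE) in WT and 0.79 ± 0.10 (SE) in URE. Of 9 mitochondrial chaperones and proteases, 5 were higher in WT GMPs and 1 in URE GMPs. Both lists stand beside 14.4% of all genes called higher in GMPs of WT and 14.2% in GMPs of URE mice. In the ER list, 4 of 22 genes were higher in URE than in WT GMPs, where 10% of all genes were called higher. These 4 were *Ero1l* (1.33 ± 0.23 (SE)), *Xbp1* (1.11 ± 0.25 (SE)), *Syvn1* (1.0 ± 0.32 (SE)) and *Calr* (0.90 ± 0.22 (SE)), an oxidase, a transcription factor, a ubiquitin ligase and a lectin chaperone of the ER.

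Many members also moved with the replicate number, which all groups share. A test of the 3 replicate terms together called 37 of the 62 members (59.7%), where 46.3% of all genes were called. Replicate 2 was the highest library of all 4 groups for 12 members (19.4%), against 5.19% of all genes, and replicates 1, 3 and 4 for 1, 2 and 0 members. The 12 were *Hspa8*, *Hsp90aa1*, *Hsp90ab1*, *Hsph1*, *Hspa5*, *Hsp90b1*, *Hspa13*, *Dnajb9*, *Hspd1*, *Hspe1*, *Dnaja2* and *Hspa1a*, from the cytosol, the ER and mitochondria. *Hspa8* was on average 0.96 log2 units above the group mean in replicate 2, *Hsp90aa1* 0.92 and *Hsph1* 0.76. As a share of all counts the members reached 1.73 to 2.26% in the libraries of replicate 2.

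Other members followed a different grouping of the same numbers, among them *Dnajb5* and *Hspa12b*, both called by genotype in LSKs. Replicates 1 to 4 of *Dnajb5* lay on average 1.29, −0.40, −2.17 and 1.27 log2 units from the group means. Those of *Hspa12b* lay at 0.82, −0.72, −0.68 and 0.58. *Dnajc16*, an ER membrane J protein chosen after its values were seen, had 23.9, 7.05, 4.49 and 15.6 CPM in WT LSKs and 23.8, 4.24, 1.42 and 11.5 CPM in WT GMPs, high in replicates 1 and 4 and low in 2 and 3. In URE mice the values were 25.8, 4.11, 11.1 and 14.5 and 20.3, 7.94, 3.79 and 26.7 CPM. Genes of the immediate early and dissociation response, a list known from tissue dissociation, summed to 286 to 463 CPM in WT LSKs, 256 to 498 in URE LSKs, 180 to 363 in WT GMPs and 171 to 329 in URE GMPs. Of the 13 tested, 9 were lower and 1 higher in GMPs of WT, and 6 lower and 2 higher in GMPs of URE mice. By genotype, 1 was called higher and 2 lower in URE LSKs, and 3 higher and 1 lower in URE GMPs. The interaction called 3 higher and 0 lower. Over all genes the genotype shares were 5.1% and 6.55% in LSKs and 10% and 7.11% in GMPs, and the interaction shares 3.97% and 2.6%. What moved the members with the replicate number was not tested. Without the libraries of replicate 2, 5 members were called by genotype in LSKs, 9 in GMPs, 25 and 18 between the cell types in WT and URE, and 2 in the interaction, beside 1523, 2127, 4970, 4818 and 318 of all genes.

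**Figure D5:**
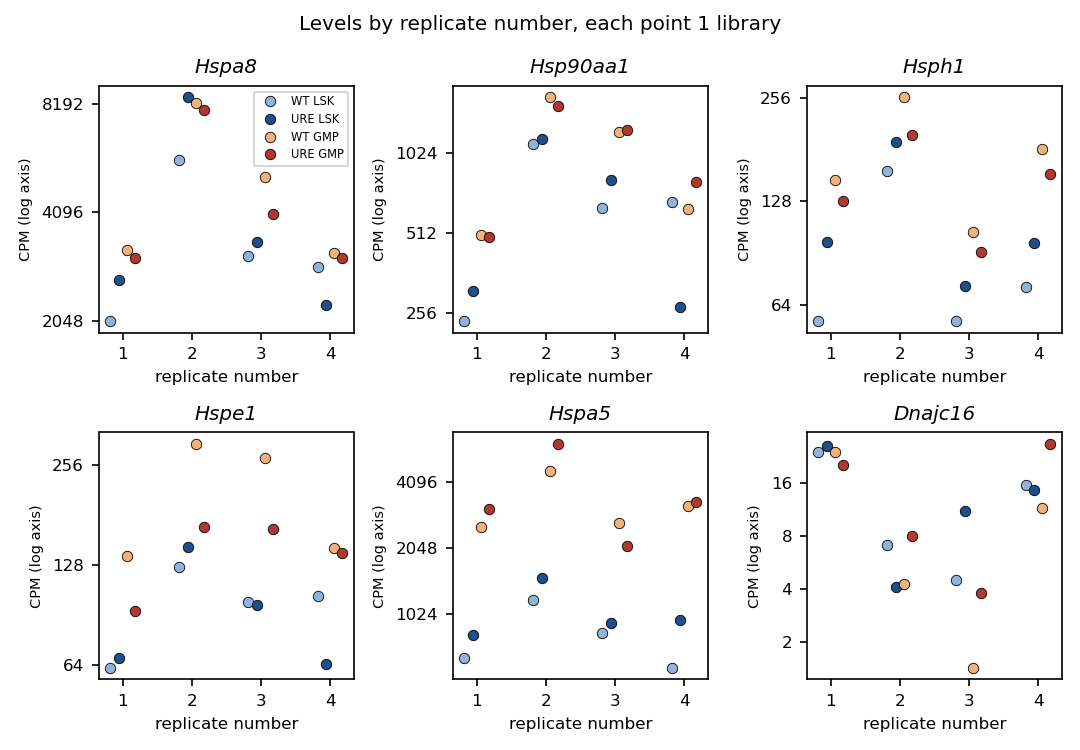
CPM (log axis) of 6 members against the replicate number, 1 point for each library and 1 colour for each group. *Hspa8*, *Hsp90aa1*, *Hsph1*, *Hspe1* and *Hspa5* peak at replicate 2 in all 4 groups, while *Dnajc16* is high in replicates 1 and 4.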

How the data were processed

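Bulk RNA was sequenced from sorted LSKs and GMPs of both genotypes (16 libraries, unstranded, no molecular identifiers). The authors quantified reads with Salmon and imported the estimates to gene level, and deposited them as estimated counts in whole numbers for 54347 genes. GRCm38 is the build in the submitters' processing notes, and the annotation release is not given in the sources used here.

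Counts as deposited were analysed with edgeR 4.0.16 (limma 3.58.1, R 4.3.3). Genes were filtered by filterByExpr, libraries were scaled by TMM, and 1 quasi-likelihood fit of 16 libraries held the 4 groups and the replicate number as a block. p-values were adjusted by Benjamini-Hochberg over 15935 genes, and calls required an adjusted p below 0.05 with a fold change over 1.5 (interaction: adjusted p alone). SEs were derived from the fold change and the F statistic. Log2 CPM for the exact permutation tests used a prior count of 2. The fit was tested on simulated data.

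The numbers were taken to pair the libraries because same-numbered libraries deviated together from their group means (correlations 0.24 to 0.71 over 24 pairs, against −0.59 to 0.41 with a median of −0.26 over the 72 pairs of different numbers, so that the ranges overlap). Taking out the group means by itself lowers the correlations of different numbers, so their negative median is not an independent contrast. Replicates 1 and 4 also deviated together across groups, by up to 0.41. Whether LSKs and GMPs of a number came from 1 mouse is not given. Replicates differed beyond sampling noise. Named genes were *Spi1*, the called members of each comparison with the largest fold changes (at most 12), the called interaction members, a fixed set of core chaperones, and at most 4 called genes of a pathway list with *Hsf1*. Other members named were chosen after their values were seen. The members and the pathway lists were chosen with earlier results of these data known, and families and compartments were assigned after values had been seen. Alternatives were DESeq2 1.42.0, other scaling, other filters, thinned counts, no block, a Y-linked covariate, subsets of libraries and leaving out each library. The fit without replicate 2 and the test of the replicate terms were added after seeing the data. Promoters are from RefSeq (GRCm38.p6). Features of the proteins were not analysed here, and 1 lineage marker is not reported here. Figures were drawn with matplotlib 3.10.9.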

Additional observations from a re-analysis of the deposited data

Results flagged for a closer look

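The genotype effect differed between GMPs and LSKs by the interaction test for 6 members. As the log2 difference of GMPs minus LSKs, it was 3.02 for *Hspa2*, 1.57 for *Dnajb2* and 0.92 for *Dnajb9*, and −0.72 for *Hspd1*, −0.69 for *Hsph1* and −0.58 for *Hsp90ab1*.

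A single library stood apart from the other 3 of its group in 9 of 143 groups tested over 36 members, where chance gives about 5% of groups. Of these 9, 6 were libraries of replicate 2 that were the highest of their group. They were *Dnajb9* at 81.2 CPM and *Hsph1* at 157 CPM in WT LSKs, *Dnajc12* at 16.2 CPM in URE LSKs, and *Dnajb4* at 41.8 CPM, *Hspd1* at 991 CPM and *Hspa1b* at 0.731 CPM in URE GMPs. The other 3 were the lowest of their group, *Dnaja4* at 2.10 CPM in replicate 4 of WT LSKs, *Dnaja3* at 84.6 CPM in replicate 3 of WT GMPs and *Hspa9* at 499 CPM in replicate 3 of URE GMPs.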

How the results depend on the processing

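None of the 51 called differences followed (at most 12 members a comparison, with *Spi1*) changed sign under an alternative. Of these, DESeq2, its size factors and counts thinned to the smallest library kept 51, and 40 were kept without any single library. The replicate block bore most on the genotype: without the replicate block 4 members were called by genotype in LSKs, 7 in GMPs and 1 in the interaction, against 7, 13 and 6 with it (1096, 1553 and 194 of all genes, against 1857, 2729 and 1047), and 16 of the 51 called differences were lost. The Y-linked covariate left 3 in LSKs and 8 in GMPs (1350 and 1996 of all genes), and a fit of the 8 libraries alone left 4 in LSKs (1433 of all genes). Replicates 1 and 4 alone, where sex matched between the genotypes, gave 3 in LSKs, 12 in GMPs and 2 in the interaction (1289, 1752 and 307 of all genes). In replicates 2 and 3 sex cannot be told apart from the genotype. Replicates 2 and 3 alone, with 8 libraries, gave 0 in LSKs, 1 in GMPs, 14 and 9 between the cell types in WT and URE, and 0 in the interaction (at an unadjusted p under 0.05 in edgeR, 8 members in LSKs and 5 in the interaction). Over all genes that last fit called 274, 392, 2780, 2072 and 2. Without a fold limit 20 were called in GMPs, and DESeq2 called 11 in the interaction, while the counts over all genes went from 2729 to 3479 and from 1047 to 2042. The fit without replicate 2 called 2 there (318 of all genes). Leaving out each library gave 5 to 8 members by genotype in LSKs, 9 to 15 in GMPs, 27 to 32 and 18 to 21 between the cell types in WT and URE, and 3 to 10 in the interaction (3 without replicate 1 or 4 of WT LSKs, 1 of URE LSKs, 1 or 4 of WT GMPs or 2 of URE GMPs, and 10 without replicate 3 of URE LSKs), where all genes gave 1418 to 1971, 2129 to 3089, 5142 to 6283, 4832 to 5525 and 563 to 1700. The median over members moved to 0.07 between the cell types in URE with no filter, and to −0.16 in the interaction with a stricter one. Depth limits *Hspa1a*, *Hspa1b* and, in WT GMPs, *Hspb8*, where a few counts set the fold change.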
